A study of Mus musculus with 8 samples.

Results

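The effector genes of alternative activation are described here in mouse macrophages that had been exposed to IL-6 but to no added IL-4. They are Arg1, Arg2, Retnla, Chil3, Mrc1, Mgl2, Klf4, Pparg, Tgm2 and Alox15, chosen by name, and all 10 were measured among 19938 genes, each by 1 probe set. Macrophages were grown from bone marrow with M-CSF (10 ng/ml, 10 days), kept without serum overnight and then cultured for 4 h with murine IL-6 at 50 ng/ml. Control cells (Ctrl, 4 arrays) came from mice of genotype IL6ralpha flox/flox, whose Il6ra alleles carry loxP sites but which had no Cre. Receptor-deficient cells (IL6raKO, 4 arrays) came from IL6ralpha flox/flox LysMCre tg/wt mice, in which Cre is made in cells of the myeloid lineage. Both groups thus shared the floxed alleles and the IL-6 exposure, and only IL6raKO carried Cre, so effects of Cre and of receptor loss cannot be told apart. No ages are given, and the labels call the 4 arrays of a group biological replicates without naming separate animals, so the tests here weigh differences against the spread of these 8 cultures only.

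Alternative activation is the state that macrophages enter when IL-4 or IL-13 binds receptors containing the IL-4 receptor alpha chain, Il4ra, and the transcription factor STAT6 is phosphorylated. Its effectors include enzymes that draw arginine away from nitric oxide synthesis, secreted lectin-like and resistin-like proteins, endocytic receptors, and the transcription factors KLF4 and PPARγ, which act together with STAT6. IL-6, in contrast, signals through Il6ra and gp130 mainly to STAT3. The comparison asks whether the effectors already differed between Ctrl and IL6raKO cells before any IL-4 was supplied.

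No effector gene passed the test between genotypes. At an adjusted p under 0.05 in limma, a linear model fitted over all genes with Benjamini-Hochberg adjustment, 0 of the 10 were called, where 6 of all 19938 genes were (0.0301%). At an unadjusted p under 0.05 there were 2, Pparg and Alox15, where 7.28% of all genes reached that level. Pparg was higher in IL6raKO, where 2.74% of all genes were higher at that level, and Alox15 lower, where 4.54% were. With 1 array left out this count was 2 without IL6raKO replicate 1 or Ctrl replicate 3 (then Mgl2 and Alox15), 1 without any of the others except IL6raKO replicate 2, and 0 without that one. Of the 10 genes, 8 had a lower mean in IL6raKO and 2 a higher mean, and their median difference was -0.08 on the log2 scale, beside -0.01 over all genes, of which 54.2% had a lower mean. That count of 8 fell to 5 without IL6raKO replicate 1, where the median was -0.039, and the median was -0.043 without Ctrl replicate 3, -0.050 without Ctrl replicate 4 and -0.056 without IL6raKO replicate 2. The cells carried bright macrophage genes, with Csf1r, the M-CSF receptor, at 12.33 in Ctrl and 12.34 in IL6raKO. The lysosomal protein Cd68 was at 12.89 and 12.93. Lyz2, the brightest of the macrophage markers, differed by -0.11 (SE 0.07). As only IL6raKO carried LysMCre, an effect of LysMCre on Lyz2 cannot be told apart from a difference in macrophages. The marker Cd163 was dim (percentile 33.2 of all genes).

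**Figure D1:**
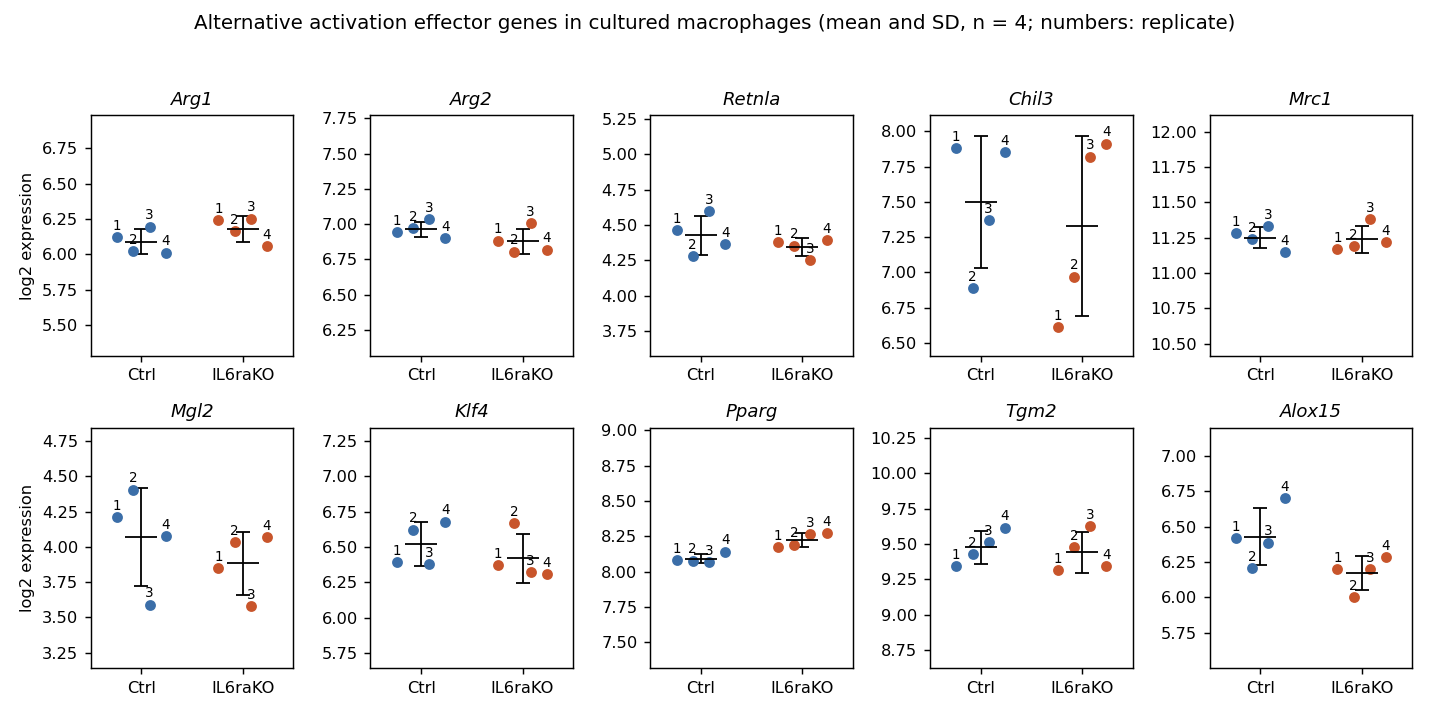
Each panel plots log2 expression of 1 effector gene (vertical axis, the same span in every panel) in the 4 Ctrl and 4 IL6raKO arrays, with replicate numbers beside the points and the mean and SD as black bars. Pparg is the panel in which all IL6raKO points lie above all Ctrl points, and the Chil3 points spread from 6.61 to 7.91.

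The arginases were near each other in the groups. Arg1, the cytosolic enzyme that splits arginine into ornithine and urea, was at 6.12, 6.02, 6.20 and 6.01 in Ctrl replicates 1 to 4 and at 6.24, 6.16, 6.25 and 6.06 in IL6raKO replicates 1 to 4. The groups overlapped, with the highest value in an IL6raKO array and the lowest in a Ctrl array. The mean signal of Arg1 lay at percentile 43.2 of all genes. The difference of IL6raKO minus Ctrl was 0.09 on the log2 scale (95% confidence interval -0.06 to 0.24, limma adjusted p = 0.793), so that a level between 95.8% and 118% of control lies within the interval. Arg2, the mitochondrial arginase, stood at 6.94, 6.97, 7.03 and 6.90 in Ctrl and at 6.88, 6.80, 7.00 and 6.82 in IL6raKO. Here the direction was the opposite one, with 3 of the 4 IL6raKO arrays below every Ctrl array and replicate 3 inside the Ctrl range. Its difference was -0.08 (95% confidence interval -0.23 to 0.06, limma adjusted p = 0.795). Whether the differences of these 2 arginases differ from each other was not tested.

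Retnla and Chil3 encode secreted proteins that are among the strongest IL-4-induced products of mouse macrophages. The sequence upstream of both is shown because STAT proteins bind TTC and GAA half-sites whose spacing bears on which STAT prefers them, STAT6 favouring 4 bases of any kind between TTC and GAA and STAT3 favouring 3. The 250 bases before the RefSeq gene start (build GRCm38.p6) are given 5′ to 3′ on the gene's strand, and capitals mark the match. Retnla lies on the plus strand (chr16:48842359-48842608) and Chil3 on the minus strand (chr3:106167565-106167814).
Retnla: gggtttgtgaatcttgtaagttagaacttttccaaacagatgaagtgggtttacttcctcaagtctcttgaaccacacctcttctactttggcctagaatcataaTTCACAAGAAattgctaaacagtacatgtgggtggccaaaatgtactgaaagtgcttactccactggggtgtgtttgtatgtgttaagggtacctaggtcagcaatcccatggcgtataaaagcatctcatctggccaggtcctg
Chil3: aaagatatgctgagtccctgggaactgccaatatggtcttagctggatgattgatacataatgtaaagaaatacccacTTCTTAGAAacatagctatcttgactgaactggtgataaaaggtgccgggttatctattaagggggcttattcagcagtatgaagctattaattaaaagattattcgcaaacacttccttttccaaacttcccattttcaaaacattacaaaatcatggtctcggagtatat

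In the Retnla window the match TTCACAAGAA begins 145 bases before the gene start and has 4 bases between the half-sites, and in the Chil3 window TTCTTAGAA begins 172 bases before it and has 3. Both motifs read the same on either strand, and neither match overlapped one of the other motif. Of all 32851 such upstream windows, 5.85% hold the longer motif and 7.02% the shorter one. Windows were found for 6 of the 10 effector genes, 8 windows in all because Pparg has 3, and each motif occurred in 1 of the 8. Those of Mrc1, Mgl2, Klf4 and Pparg held neither, and no window is given for Arg1, Arg2, Tgm2 and Alox15. A match is a run of letters in a short window and does not show binding.

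Retnla, the gene with the wider-spaced match, was dim in every culture. It was at 4.46, 4.28, 4.60 and 4.37 in Ctrl and at 4.38, 4.35, 4.25 and 4.39 in IL6raKO. Ctrl replicates 1 and 3 were the highest, and the other Ctrl values lay within the IL6raKO range. The difference was -0.08 (95% confidence interval -0.25 to 0.08, limma adjusted p = 0.835). It was -0.026 without Ctrl replicate 3, -0.052 without IL6raKO replicate 3 and -0.13 without Ctrl replicate 2. Its mean signal lay at the 9.59th percentile of all genes, a level at which RMA compresses differences. The percentile ranks the brightness of probe sets and is no measure of transcript amounts.

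Chil3, the chitinase-like protein also called Ym1, varied more between cultures of the same genotype than nearly any other gene. It was at 7.88, 6.89, 7.37 and 7.85 in Ctrl and at 6.61, 6.97, 7.82 and 7.91 in IL6raKO. High and low cultures occurred in both genotypes, and the groups overlapped over almost their whole range. The highest array was 2.46-fold above the lowest, and its SD within groups, 0.56, lay at percentile 99.96 of all genes. The difference was -0.17 (SE 0.29, 95% confidence interval -0.81 to 0.47, limma adjusted p = 0.926), which leaves levels between 56.9% and 139% of control within the interval. Without IL6raKO replicate 1, the lowest array, the difference was 0.07.

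Chil3 is also made by monocytes, and other monocyte markers are therefore set beside it. Ccr2, the chemokine receptor of inflammatory monocytes, was at 8.48, 8.28, 8.14 and 8.69 in Ctrl and at 7.33, 7.98, 8.06 and 8.70 in IL6raKO. The array lowest in Chil3, IL6raKO replicate 1, was lowest in Ccr2 as well, and the array highest in Chil3, IL6raKO replicate 4, was highest in Ccr2. F13a1, the coagulation factor XIII A chain of monocytes, was at 6.10, 6.14, 5.83 and 6.05 in Ctrl and at 5.77, 5.75, 5.69 and 6.09 in IL6raKO. IL6raKO replicate 3 was high in Chil3 and the lowest of all in F13a1, so the markers did not move together in every array. Plac8, the remaining measured monocyte marker, was at 5.15, 4.58, 4.78 and 4.87 in Ctrl and at 4.87, 4.69, 4.71 and 4.84 in IL6raKO. In Plac8 IL6raKO replicate 1 was thus the highest of its group. All 4 measured genes of the monocyte list, Chil3 included, had a lower mean in IL6raKO, where 54.2% of all genes did. That count was 3 without Ctrl replicate 1 or without IL6raKO replicate 1. The mean of the 3 genes other than Chil3 ranged from 6.25 to 6.58 in Ctrl and from 5.99 to 6.54 in IL6raKO. In such bulk RNA a change in the share of a cell type cannot be told apart from a change in RNA per cell, and the part of monocytes in the Chil3 values was not tested.

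**Figure D2:**
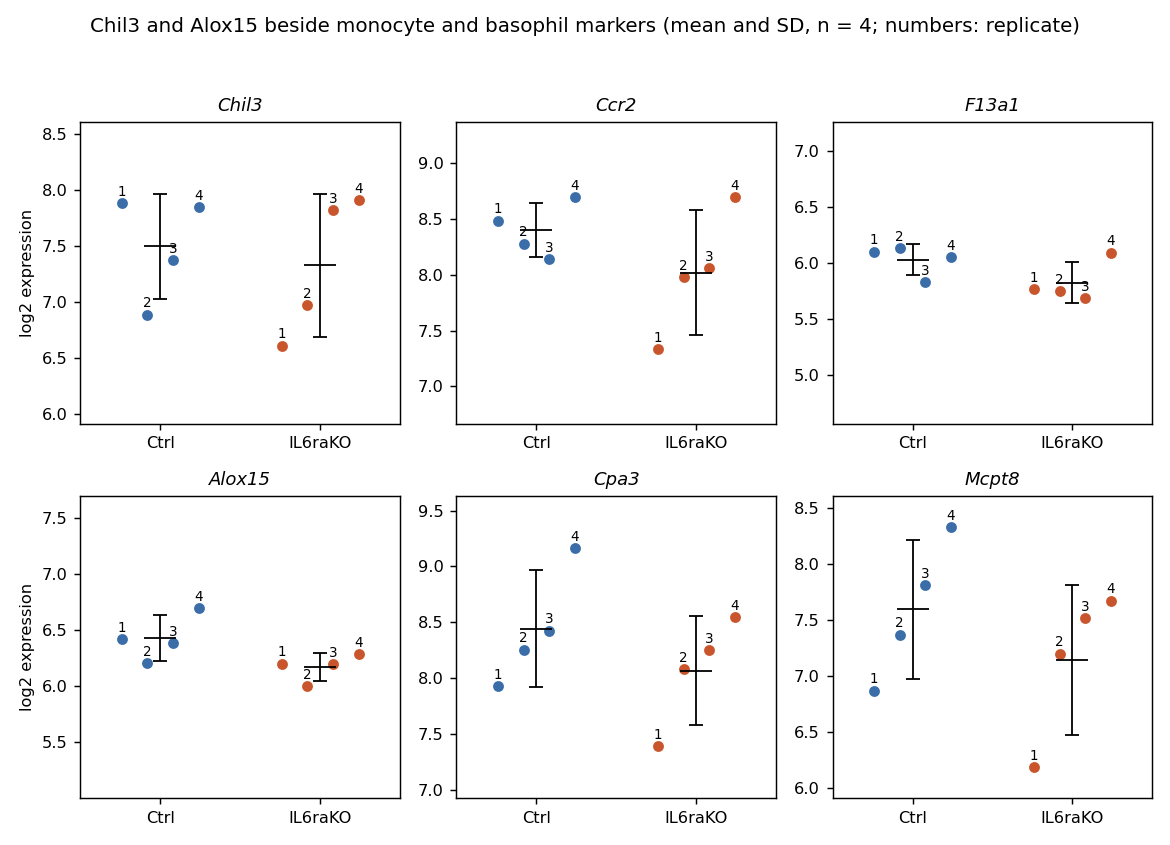
Log2 expression (vertical axis, the same span in every panel) of Chil3 beside the monocyte markers Ccr2 and F13a1, and of Alox15 beside the basophil and mast cell genes Cpa3 and Mcpt8, by genotype, with replicate numbers and the mean and SD of 4 arrays. IL6raKO replicate 1 is lowest in Chil3, Ccr2, Cpa3 and Mcpt8, and Ctrl replicate 4 is highest in Alox15, Cpa3 and Mcpt8.

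The endocytic lectin receptors did not separate the genotypes. Mrc1, the mannose receptor that takes up glycoproteins with terminal mannose, was at 11.28, 11.24, 11.33 and 11.15 in Ctrl and at 11.17, 11.19, 11.38 and 11.22 in IL6raKO. It was bright and even, with the Ctrl values lying within the IL6raKO range except for the lowest, Ctrl replicate 4. The difference was -0.01 (95% confidence interval -0.16 to 0.14, limma adjusted p = 0.981), an interval from 89.3% to 110% of control. Mgl2, a C-type lectin for galactose and N-acetylgalactosamine, was at 4.21, 4.41, 3.59 and 4.08 in Ctrl and at 3.85, 4.03, 3.58 and 4.07 in IL6raKO. Replicate 3 was the lowest array in both groups, and the spread was wide (SD within groups 0.29, percentile 98.6) at a signal near the bottom of the range (percentile 5.67). Its difference was -0.19 (95% confidence interval -0.54 to 0.16, limma adjusted p = 0.819). It was -0.075 without Ctrl replicate 2, -0.086 without IL6raKO replicate 3 and -0.35 without Ctrl replicate 3 (unadjusted p = 0.0176, limma adjusted p = 0.682).

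Of the transcription factors, Pparg was the only effector gene whose groups did not overlap. Pparg, the nuclear receptor for fatty acid ligands, was at 8.08, 8.08, 8.07 and 8.14 in Ctrl and at 8.17, 8.19, 8.27 and 8.27 in IL6raKO. Every IL6raKO value lay above every Ctrl value, a pattern that 2.07% of all genes showed in this direction, 2.37% in the other and 4.44% in either. The gap was small, since IL6raKO stood at 110% of control, a difference of 0.13 (SE 0.06, 95% confidence interval 0.01 to 0.26, unadjusted p = 0.0395, limma adjusted p = 0.67). The unadjusted limma p was above 0.05 after quantile normalization again (0.1001) and after centring on the 75th percentile (0.102). It was also above 0.05 in 6 of the 8 fits with 1 array left out, which gave 0.0285 to 0.0967, and the adjusted p lay between 0.53 and 0.857 over all alternatives. Pparg was also among the least variable genes (SD within groups 0.04, percentile 2.86). Klf4, a zinc finger factor, was at 6.39, 6.62, 6.38 and 6.68 in Ctrl and at 6.37, 6.67, 6.32 and 6.31 in IL6raKO. In both groups the values fell apart into higher and lower arrays, 2 of the 4 Ctrl arrays and 1 of the 4 IL6raKO arrays lying above 6.6. The difference was -0.10 (95% confidence interval -0.32 to 0.12, limma adjusted p = 0.847). With 1 array left out it lay between -0.048, without Ctrl replicate 4, and -0.19, without IL6raKO replicate 2.

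The remaining enzymes were Tgm2 and Alox15. Tgm2, the tissue transglutaminase that crosslinks proteins, was at 9.34, 9.43, 9.51 and 9.62 in Ctrl and at 9.32, 9.48, 9.63 and 9.34 in IL6raKO. The ranges were almost the same, and the difference was -0.03 (95% confidence interval -0.22 to 0.15, limma adjusted p = 0.953). Alox15, the lipoxygenase that oxidises arachidonic and linoleic acid, was at 6.42, 6.21, 6.39 and 6.70 in Ctrl and at 6.20, 6.0, 6.20 and 6.29 in IL6raKO. Ctrl replicates 1, 3 and 4 lay above every IL6raKO array, while Ctrl replicate 2 lay below IL6raKO replicate 4. The mean signal of Alox15 lay at percentile 47.0 of all genes. Alox15 had the lowest p of the 10 genes, with IL6raKO at 83.6% of control (difference -0.26, SE 0.10, 95% confidence interval -0.48 to -0.04, unadjusted p = 0.0264, limma adjusted p = 0.669). Without Ctrl replicate 4, the highest array, the difference was -0.17 (unadjusted p = 0.0765), and without Ctrl replicate 2 it was -0.33 (unadjusted p = 0.00605, limma adjusted p = 0.637). Over all alternatives that kept Alox15 the adjusted p lay between 0.52 and 0.855.

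Ctrl replicate 4, the array highest in Alox15, was also the highest in Cpa3 and Mcpt8, genes of basophils and mast cells. Cpa3, a carboxypeptidase of their granules, was at 7.93, 8.26, 8.42 and 9.17 in Ctrl and at 7.39, 8.08, 8.25 and 8.55 in IL6raKO, and the basophil protease Mcpt8 at 6.87, 7.37, 7.81 and 8.33 and at 6.19, 7.20, 7.52 and 7.67. The orders differ at the lower end, where Alox15 was lowest in IL6raKO replicate 2 and Cpa3 and Mcpt8 in IL6raKO replicate 1. Among other markers of such cells, Ms4a2, Fcer1a, Prss34, Gata2 and Tpsb2 were also highest in Ctrl replicate 4. Hdc, Kit, Prg2, Epx, Il5ra, Siglecf and Cma1 were highest in other arrays, and Cma1 was lowest in Ctrl replicate 4. Over all genes 54.2% had a lower mean in IL6raKO. Of the 14 measured markers of basophils, mast cells and eosinophils 12 had a lower mean in IL6raKO. With 1 array left out that count ran from 10, without IL6raKO replicate 1 or 3, to 13, without Ctrl replicate 2 or 3. Without Ctrl replicate 4 it was 11, and the median difference moved from -0.11 to -0.045. Of these 14, 0 were called and 0 reached an unadjusted p under 0.05 in limma. Their mean level ranged from 5.99 to 6.42 in Ctrl and from 5.82 to 6.27 in IL6raKO. Of 11 neutrophil markers 8 had a lower mean (mean level 6.37 to 6.61 and 6.22 to 6.51), a count that was 5 without IL6raKO replicate 1, where their median difference turned from -0.11 to 0.0069. Of 8 dendritic cell markers 5 had a lower mean (6.74 to 6.93 and 6.74 to 6.83), and of 8 stromal markers 6 (6.21 to 6.40 and 6.16 to 6.39). Of 10 lymphoid markers 7 had a lower mean and 0 were called. An unadjusted p under 0.05 in limma was reached by 1 of the 10, beside 7.28% of all genes. The mean level of the lymphoid markers ran from 6.47 to 6.52 in Ctrl and from 6.39 to 6.45 in IL6raKO, without overlap. This was not particular to them. The mean of the IL-4 receptor signalling genes described below ran from 7.481 to 7.569 in Ctrl and from 7.415 to 7.453 in IL6raKO. That of the relatives of the effector genes ran from 6.143 to 6.305 and from 6.061 to 6.127. No single lymphoid marker separated the groups, and how often lists of this size separate by their mean was not tested. The part of such cells in the effector genes was not tested. The 11 macrophage markers had mean levels of 10.62 to 10.71 in Ctrl and 10.63 to 10.65 in IL6raKO. Of these, 5 had a lower mean and 0 were called. Fcgr1 (-0.24) was the 1 of the 11 with an unadjusted p under 0.05 in limma. Ctrl replicate 4 also stood apart over all genes, at 21.5 on the first principal component, where the other arrays lay between -6.6 and 4.82.

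The effector genes are next set beside the receptor genes of the series. Il6ra, the targeted gene, was at 8.43, 8.40, 8.40 and 8.45 in Ctrl and at 7.75, 8.10, 7.91 and 7.92 in IL6raKO, with every IL6raKO array below every Ctrl array, which the exact two-sided permutation test over arrays gives its smallest possible p, 0.0286. The Il6ra difference was -0.50 on the log2 scale, with a limma adjusted p over all genes of 0.0607. Its signal in IL6raKO was thus lowered to 70.6% of control (95% confidence interval 63.1% to 79.1%) and not absent. Il4ra, through which the IL-4 signal would enter, was at 9.92, 9.98, 10.05 and 10.10 in Ctrl and at 9.44, 9.55, 9.59 and 9.41 in IL6raKO. It fell by 0.52 on the log2 scale (95% confidence interval -0.66 to -0.37, limma adjusted p = 0.0437), and Stat3 fell by 0.57 (limma adjusted p = 0.0348). Both calls were lost with any 1 array left out, where the adjusted p of Il4ra reached at most 0.172 and its difference stayed between -0.55 and -0.49. None of the confidence intervals of Arg1, Arg2, Retnla, Mrc1, Klf4, Pparg and Tgm2 reached below -0.32, while those of Chil3, Mgl2 and Alox15 reached -0.81, -0.54 and -0.48.

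**Figure D3:**
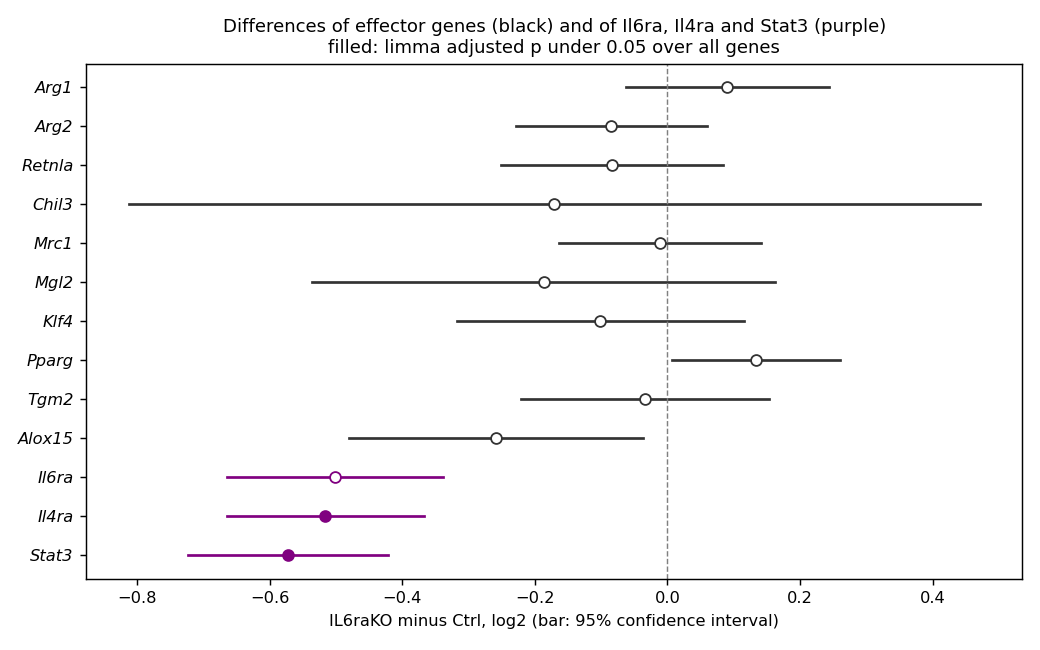
Difference of IL6raKO minus Ctrl on the log2 scale (horizontal axis) with its 95% confidence interval for the 10 effector genes and for Il6ra, Il4ra and Stat3, from the fit of all 8 arrays. The intervals of Pparg and Alox15 leave out 0 before adjustment, and filled points, Il4ra and Stat3, passed the test over all genes.

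Other genes of the IL-4 pathway were counted by lists. Of 15 measured genes of IL-4 receptor signalling, 1 was called (Il4ra, lower) and 0 higher, and the other 14 did not pass. Over all genes 0.0301% were called. The median difference of the 15 was -0.05. A lower mean was seen in 13 of 15, where 54.2% of all genes had one, and in 10 without Ctrl replicate 4. After Il4ra the lowest p-values were those of Ptpn6, the phosphatase SHP-1 (-0.14, SE 0.07), Il13ra1, the partner chain of Il4ra in the receptor for IL-13 (-0.15, SE 0.09), and Il4 itself (-0.16, SE 0.10). Stat6, named as the known transducer of the IL-4 signal after its value was seen, had a mean of 9.43 with an SD of 0.02 over the Ctrl arrays and of 9.44 with an SD of 0.06 over the IL6raKO arrays, so that the genotypes differed by 0.00 (95% confidence interval -0.12 to 0.13), with no stable sign under the scalings tried.

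Of 29 measured other genes that IL-4 is known to induce, 0 were called and 4 reached an unadjusted p under 0.05 in limma, beside 7.28% of all genes. Egr2, a zinc finger factor of alternatively activated cells, was 0.32 higher in IL6raKO (SE 0.08, unadjusted p = 0.00117, limma adjusted p = 0.448). Its groups did not overlap, a pattern that 2.07% of all genes showed in this direction. The IL-1 receptor antagonist Il1rn was 0.28 higher (SE 0.08) and Myc 0.23 higher (SE 0.09), while the low affinity IgE receptor Fcer2a was 0.33 lower (SE 0.12). The directions were thus mixed, with 14 of 29 genes lower and a median of 0.01.

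The genes around the arginases and PPARγ gave no call. Of 12 measured genes of arginine and polyamine metabolism, 0 were called and 0 reached an unadjusted p under 0.05 in limma (median -0.02). The lowest p-values belonged to Sat1, which acetylates polyamines for breakdown (0.15, SE 0.08, all IL6raKO arrays above all Ctrl arrays), Azin1, the inhibitor of antizyme (0.12), Aldh18a1, which makes proline precursors (-0.11), and Agmat (-0.10). Nos2, the nitric oxide synthase that competes with arginase for arginine, differed by -0.07 (95% confidence interval -0.23 to 0.10). Of 17 partners and targets of PPAR receptors 0 were called and 0 reached an unadjusted p under 0.05 (median 0.03). Nr1h3, the oxysterol receptor LXRα, stood at a difference of 0.14 (SE 0.07). The related receptors differed the other way from Pparg, Ppard by -0.12 (SE 0.06) and Ppara by -0.10 (SE 0.06). In Ppara all IL6raKO arrays lay below all Ctrl arrays, as in 2.37% of all genes. The separation of Sat1, in the other direction, was that of 2.07% of all genes. Pdk4 differed by -0.13 (SE 0.10). Of 18 genes of classical activation, the state opposed to that of IL-4, 0 were called and 3 reached an unadjusted p under 0.05 in limma, Socs3 (-0.27), Irf1 (-0.22) and Cd80 (0.28), beside 7.28% of all genes. That count was 5 without IL6raKO replicate 2 or replicate 4. Il23a had the fourth lowest p there (-0.13). For Socs3, Irf1 and Cd80 the brighter of 2 probe sets was used. With the 2 probe sets averaged per gene, all of these differences were smaller. They were then -0.18 for Socs3 (unadjusted p = 0.016 in limma), -0.11 for Irf1 (0.11) and 0.16 for Cd80 (0.041). Irf1 was thus above 0.05 when averaged, and its difference depends on the probe set chosen.

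**Figure D4:**
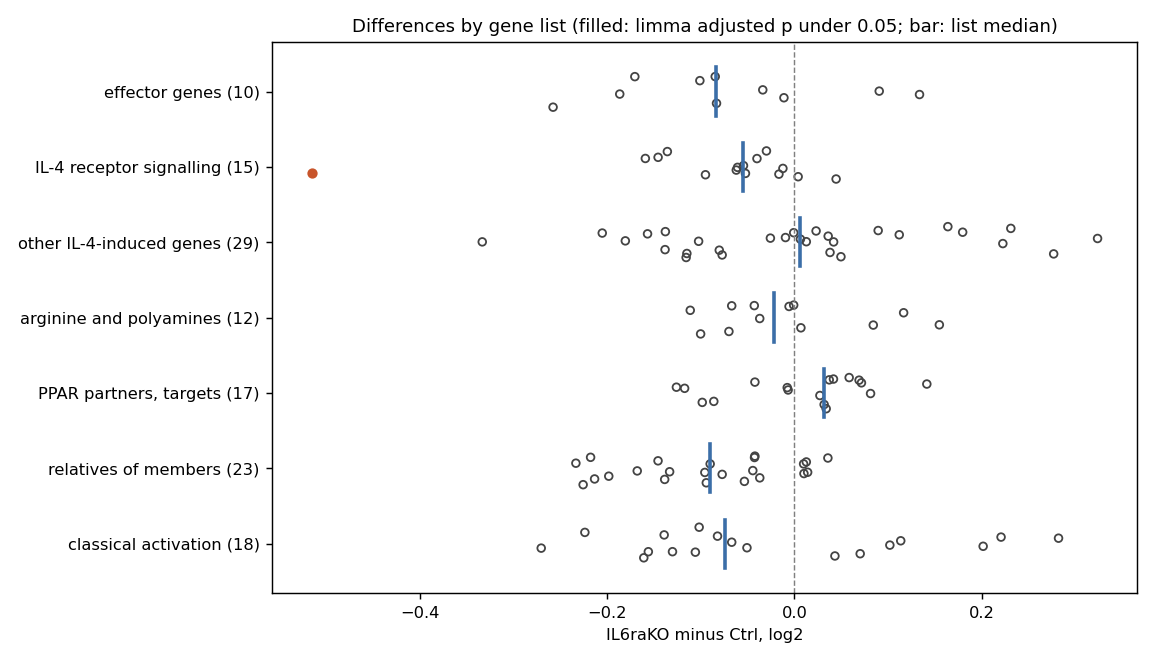
Difference of IL6raKO minus Ctrl on the log2 scale (horizontal axis) for every measured gene of 7 lists, with the number of genes in brackets, the list median as a blue bar and filled points for genes called in limma over all genes. Il4ra at -0.52 is the filled point, and the effector genes lie between -0.26 and 0.13.

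Several effector genes sit beside close relatives in the genome. In the RefSeq gene order Retnla lies between Retnlb and Retnlg, Chil3 between Chia1 and Chil4, Mgl2 next to Clec10a, and Alox15 next to Alox12e and Alox12. Probe sets of such similar genes can share signal, and for Chil3 and Chil4 in particular the array may not keep the transcripts apart. Chil4 was at 3.92, 3.73, 3.33 and 3.91 in Ctrl and at 3.60, 3.68, 3.54 and 3.77 in IL6raKO, near the bottom of the signal range (percentile 3.70). In both genes Ctrl replicates 1 and 4 were the highest of their group and IL6raKO replicate 4 the highest of its own. Other arrays differed in order. IL6raKO replicate 3, at 7.82 in Chil3, was the lowest of its group in Chil4, and Ctrl replicate 3 lay above Ctrl replicate 2 only in Chil3. The part of shared signal was not tested. Clec10a, the other galactose-type lectin, differed by 0.01 (SE 0.11, with the sign turned when arrays were centred on their 75th percentile) beside -0.19 for Mgl2. Retnlb differed by -0.22 (SE 0.10) and Retnlg by -0.09 (SE 0.08), and Alox12 by -0.13 (SE 0.13).

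Among 23 measured relatives of the effector genes, 18 had a lower mean in IL6raKO, also without Ctrl replicate 4, where 54.2% of all genes did. The median difference of the 23 was -0.09. None was called (0 of 23), 6 reached an unadjusted p under 0.05 in limma, all 6 lower, where 4.54% of all genes were lower at that level, and 5 had all IL6raKO arrays below all Ctrl arrays, where 2.37% of all genes did. The count of 6 was 3 without IL6raKO replicate 2, 2 without IL6raKO replicate 3 and 4 to 7 without any other array. Lipoxygenase genes held the lowest p-values. Alox12e was at 5.72, 5.52, 5.39 and 5.55 in Ctrl and at 5.40, 5.29, 5.32 and 5.28 in IL6raKO (difference -0.23, SE 0.07, limma adjusted p = 0.616), with the groups meeting at 5.39 and 5.40. Alox8 was at 6.15, 6.28, 6.17 and 6.37 in Ctrl and at 6.07, 6.09, 5.97 and 6.05 in IL6raKO without overlap (difference -0.20, SE 0.07, limma adjusted p = 0.616). Alox5ap, the activating protein of leukotriene synthesis, differed by -0.17 (SE 0.06) and Tgm1, the keratinocyte transglutaminase, by -0.23 (SE 0.10), both without overlap. The lipoxygenase genes Alox12e and Alox8, at percentiles 26.3 and 43.4 of level, had lower means, as Alox15 had. They, Alox5ap and Tgm1 were named for their low p in this same fit. Their shared direction is therefore no independent support for the Alox15 difference, and none of them passed over all genes.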

How the data were processed

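Each of the 8 RNA samples was measured on its own Affymetrix whole-transcript array after biotin labelling. The values deposited by the authors are log2 expression per probe set. The submitters' processing notes name RMA (background correction, quantile normalization and probe summary) and R 2.13.1. The log2 scale was read from the range, 1.96 to 14.2, and the build is not stated in the labels. Of 35556 probe sets, 21789 had exactly 1 gene symbol in GEO's platform annotation. The brightest probe set over all 8 arrays was taken per gene, giving 19938 genes, 19855 with an Entrez identifier in the RefSeq table of GRCm38.p6. Differences, IL6raKO minus Ctrl, were fitted over all genes with limma 3.58.1 in R 4.3.3 (lmFit, eBayes with defaults, no covariate, no filter), with Benjamini-Hochberg adjustment, calls at an adjusted p under 0.05 and 95% confidence intervals. No list was tested as a group. The procedure was tested on simulated data. There is no read depth for arrays, and precision is limited by how many there are.

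The effector genes and the lists were chosen with earlier results of these data known. Named genes are the effectors, Il6ra, Il4ra and Stat3, the up to 4 genes of lowest unadjusted p per pathway list, up to 3 of the brightest markers of macrophages, monocytes and basophils, and relatives set beside an effector. Stat6, Nos2, Mcpt8 and the lists' other named members were added as known genes. Nos2 and F13a1 stand in 2 lists each, as do Chil4 and Clec10a. The settings tried in place of these were array weights, a variance prior with trend and robust estimation, the replicate number as a blocking term, only genes above the 25th percentile or above the median of mean level, a repeated quantile normalization of all probe sets, arrays centred at their 75th percentile, probe sets averaged per gene or tested singly, and 7 arrays in place of 8.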

Additional observations from a re-analysis of the deposited data

Results flagged for a closer look

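The values of each named gene within each genotype were checked for 1 array lying away from the remaining ones, in 100 sets of 4 values. There were 3 such sets, fewer than the 5 that chance gives on average, and none belonged to an effector gene. Il1rn in Ctrl replicate 4 (8.58) was above the remaining Ctrl arrays, which spanned 8.36 to 8.39. In IL6raKO replicate 4, Nr1h3 (7.17) was below the remaining arrays of that genotype, which spanned 7.35 to 7.38, and Il23a (5.61) was above theirs, which spanned 5.47 to 5.49.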

How the results depend on the processing

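For the 10 effector genes, 0 calls were made in the fit of all arrays and under every alternative run, the replicate block included (0 calls with the block), and 158 of 164 single values kept their direction. The 6 that turned came from leaving out 1 array: the range was -0.37 to 0.069 for Chil3, -0.058 to 0.015 for Mrc1 and -0.096 to 0.013 for Tgm2. Of the other genes named, leaving out 1 array gave -0.0017 to 0.061 for Cd68, -0.0037 to 0.030 for Csf1r, -0.010 to 0.032 for Stat6 and -0.055 to 0.083 for Clec10a. Quantile normalization again gave -0.0057 for Csf1r and -0.014 for Stat6, and centring on the 75th percentile gave -0.022 for Csf1r, -0.024 for Stat6 and -0.016 for Clec10a.

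The count over all genes, 6, became 22 with trended and robust variance, 11 above the median level, 11 above the 25th percentile level, 3 with quantile normalization again, 0 with the replicate block, 0 with all probe sets, and 0 to 1 without any 1 array. The 1 call among the fixed pathway lists, Il4ra, became 0 with the replicate block, with quantile normalization again and with all probe sets, and 0 to 0 without any 1 array. Some of these settings bring fewer arrays or more tests, others neither, and the causes of the changed counts were not tested. Across genes, same-numbered arrays did not deviate together (correlations -0.01, -0.01, 0.04 and -0.01 for replicates 1 to 4), so the numbers were not taken as pairs. These correlations do not show whether single genes shared a replicate order. The replicate block lowered the SE of Mgl2 from 0.159 to 0.088 (unadjusted p = 0.065, limma adjusted p = 0.685) and that of Chil3 from 0.293 to 0.236. Of the effector genes, Retnla and Pparg had a larger SE with the block, and the others a smaller one. With that replicate block Alox15 differed by -0.26 (SE 0.07, unadjusted p = 0.00552, limma adjusted p = 0.658) and Pparg by 0.13 (SE 0.06, unadjusted p = 0.0663, limma adjusted p = 0.687). The filters removed Retnla and Mgl2, which lay below the 25th percentile of level, and the filter at the median also Arg1 and Alox15, so these have no value there. Dim signal limits Retnla and Mgl2, and the spread between cultures limits Chil3. Arg1, Alox15 and Klf4 lay at percentiles 43.2, 47.0 and 50.7 of level, below the lymphoid markers Cd3e (55.4) and Cd4 (56.1). Cd8a was at 45.1, and the lymphoid marker Ms4a1 was dimmer, at 9.71. Whether Arg1, Alox15 and Klf4 were read above background was not tested.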

Other observations

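The basophil and mast cell genes Cpa3 and Mcpt8 ranked the 4 arrays of each genotype in the same order of replicate numbers, replicate 1 lowest and replicate 4 highest in Ctrl and in IL6raKO alike. Alox15 did not follow this order. From lowest to highest it ran through replicates 2, 3, 1 and 4 in both genotypes, with IL6raKO replicates 1 and 3 nearly equal. Mgl2 was lowest in replicate 3 of both genotypes, at 3.59 and 3.58. The correlations of same-numbered arrays given above were taken across genes and do not describe these single genes. These patterns were noticed after the values were seen, and whether they reflect a shared replicate effect was not tested.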
